A study of Mus musculus with 7 samples.

Results

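Notch signaling was described in sorted Pax7-GFP cells through 10 genes chosen by name: the receptors Notch1, Notch2 and Notch3, the ligands Dll1 and Jag1, the DNA-binding factor Rbpj, its coactivator Maml1 and the target genes Hes1, Hey1 and Heyl. Of these, 9 were found among the 23930 genes of the deposited expression table, and Rbpj was not analysed here. The table covers 3 normocapnia libraries (NC1, NC2 and NC3) and 4 hypercapnia libraries (HC1, HC2, HC3 and HC4) of cells sorted from hind leg muscle. All animals carried the inducible Pax7-GFP reporter, received tamoxifen, and were held for 4 weeks, from 12 to 16 weeks of age, in room air or in the hypercapnia chamber, where the methods give 10% CO2. According to the methods, cardiotoxin, a toxin that destroys myofibers, was injected 3 days before collection; the labels mention no injury, and the title of the table carries a time that the paper uses only for cultured cells. The labels write the strain as C57BL/6 in NC1 and raise its number by 1 in each further sample, up to C57BL/12 in HC4, while their growth notes name the same strain for all. In this reporter Cre is expressed from the Pax7 locus and the fluorescence outlasts Pax7 itself, so that the sort can hold satellite cells together with their differentiating progeny. The labels call the animals littermates and do not state that each library is a separate animal, so p-values measure the spread between these libraries.

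Notch receptors sit on the cell surface and are activated by Delta and Jagged ligands on neighboring cells. Ligand binding exposes the receptor to cleavage by ADAM proteases and then by gamma-secretase, and the freed intracellular domain enters the nucleus, where it joins Rbpj and a Mastermind coactivator such as Maml1 and switches on repressors of the Hes and Hey families. In muscle this pathway is known for holding satellite cells in quiescence and for restraining differentiation of activated myoblasts, and in blood vessels for endothelial and mural cell identity.

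Library totals ran from 14527445 to 23388710 reads, and 1 read was worth 0.0428 to 0.0688 RPM (reads of a gene scaled to a common library total). An AmpliSeq panel copies 1 short stretch of each gene, so a value compares a gene between libraries and not 1 gene with another. The libraries differed widely in their cell markers. Pax7, the transcription factor of satellite cells, was 268 RPM in NC1, 8.25 in NC2 and 4.34 in NC3, and 21.5, 20.1, 79.5 and 59.7 RPM in HC1, HC2, HC3 and HC4. The satellite marker score, the mean log2(RPM + 1) of 12 satellite cell and myoblast markers, fell in the order NC1, HC3, HC4, HC1, HC2, NC2 and NC3, from 6.91 to 3.08. Summed, these markers spanned 543 to 4180 RPM in normocapnia and 804 to 1640 RPM in hypercapnia, with Myl4 at 0 in 6 of 7 libraries. Macrophage markers were abundant in every library (12 genes, summed 13500 to 37300 RPM in normocapnia and 21100 to 26100 RPM in hypercapnia), although C1qa stayed between 0 and 0.452 RPM. Their sum was highest in NC3, but the macrophage score, their mean log2(RPM + 1), was lower in NC3 (7.98) than in HC1 (8.83). Endothelial markers (10 genes) summed to 92.2 to 267 RPM in normocapnia and 66.4 to 633 RPM in hypercapnia, highest in HC3 and HC4. Fibro-adipogenic markers summed to 976 to 2380 RPM over all 7 libraries, neutrophil markers to 236 to 1470 RPM, and the 6 lymphocyte markers in the table to 8.04 to 16.3 RPM. In such bulk samples, fewer cells of a type and less RNA per cell cannot be told apart.

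The 9 genes fell into 2 kinds by how far they ranged over the 7 libraries. Notch3, Dll1, Hes1, Hey1 and Heyl varied between 7.25-fold (Hes1) and 81.7-fold (Heyl) from the lowest to the highest library, and the division was made after these values were seen. Notch1, Notch2, Jag1 and Maml1 varied between 1.57-fold (Notch2) and 2.55-fold (Notch1). For the wide-ranging genes this spread lay within the groups. Within normocapnia Heyl differed 81.7-fold, Dll1 47.1-fold and Notch3 41.6-fold between NC1 and NC3, and Hey1 15-fold between NC1 and NC2, each more than within hypercapnia. Hes1 differed more within hypercapnia (5.21-fold) than within normocapnia (3.86-fold).

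**Figure D1:**
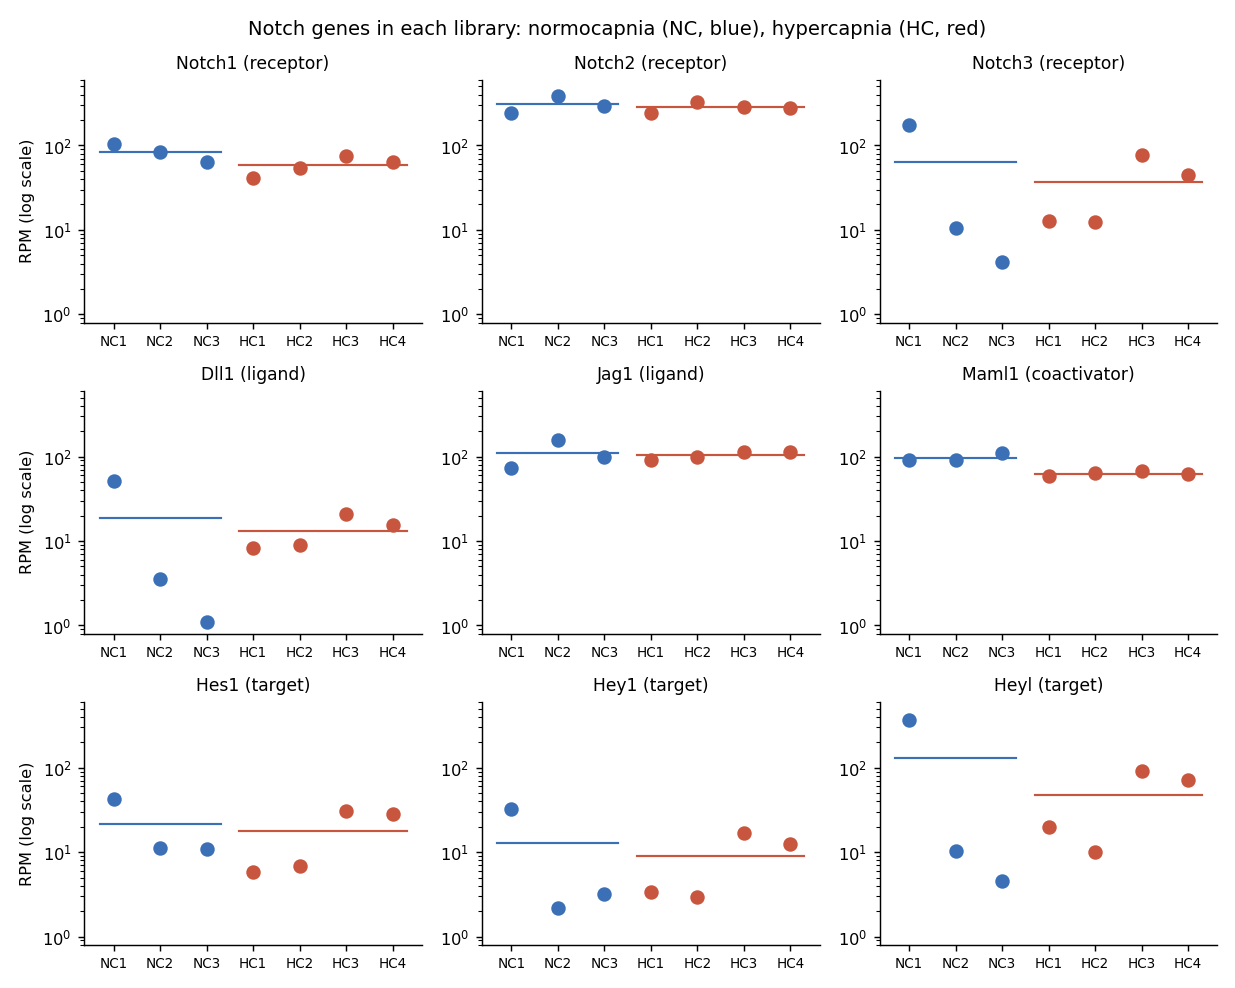
Level of each Notch gene in each library, in RPM on a log axis shared by all panels, with normocapnia in blue and hypercapnia in red and the horizontal lines at the group means. Notch3, Dll1, Hes1, Hey1 and Heyl are highest in NC1 and next highest in HC3 and HC4, whereas Maml1 is lower in all 4 hypercapnia libraries than in any normocapnia library.

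To ask whether hypercapnia altered these genes, the groups were compared with limma on log2(RPM + 1) over the whole table. A gene was called when its unadjusted p was below 0.05 and its groups differed by more than 1.5-fold, the thresholds used in the study. Of the 9 members, 1 was called, Maml1, and it was lower in hypercapnia. Over all genes 2.57% were called (615 of 23930), with 1.43% higher and 1.14% lower in hypercapnia. Among the 8229 genes averaging 10 RPM or above, where all 9 members lie, 5.54% were called, with 3.07% higher and 2.47% lower, so that 1 call in 9 genes is near the background. Of the fewer genes that each tested, 6.03% were called in edgeR with a filter (802 of 13293) and 6.25% in DESeq2 (1304 of 20858). With p-values adjusted across the table by Benjamini-Hochberg, limma called 0 genes, members included, while 1114 genes had an unadjusted p under 0.05. Adjusted calls were 0 in edgeR and 29 in DESeq2 (none of them a member). The median log2 fold change of the members was -0.0028, against 0.017 over all genes and 0.16 over the 12504 genes averaging 1 RPM or above. This median was not stable, at -0.39 in edgeR with a filter, -0.43 in DESeq2 and -0.49 with the endothelial score as a covariate, and at 0.30 without NC1, -0.37 without NC2 and -0.52 without NC3.

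**Figure D2:**
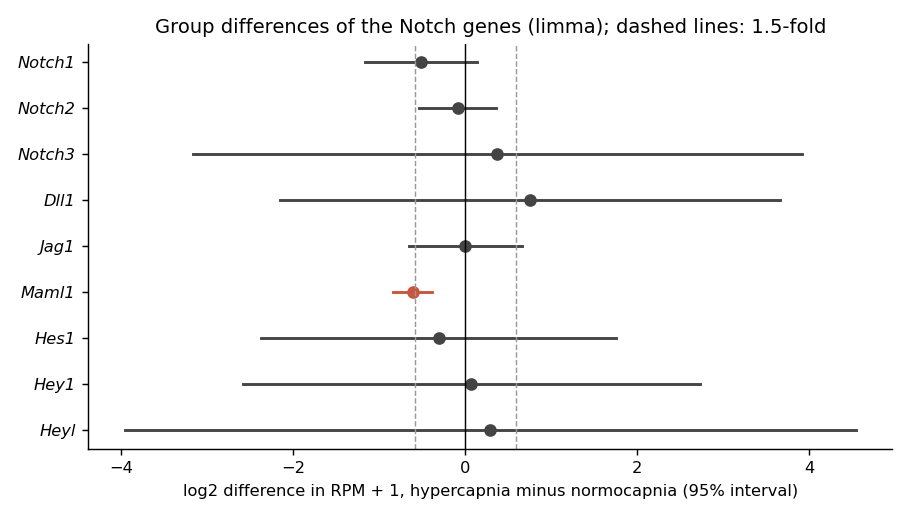
Difference in log2(RPM + 1), hypercapnia minus normocapnia, for the 9 Notch genes, with 95% intervals from limma (3 normocapnia and 4 hypercapnia libraries) and dashed lines at 1.5-fold. The interval of Maml1, in red, lies wholly below 0 (-0.84 to -0.39), while that of Heyl reaches from -3.96 to 4.54. The SE of Maml1 is 0.091 here, against 0.25 with a filter on low genes.

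Among the receptors, Notch1 was lower on average in hypercapnia without passing the test. Notch1 is the founding mammalian receptor, used by satellite and endothelial cells alike. It measured 104, 83.6 and 64.1 RPM in NC1, NC2 and NC3, against 40.7, 54.7, 74.9 and 63.4 RPM in HC1, HC2, HC3 and HC4. The groups overlapped, since NC3 lay below HC3. The log2 fold change was -0.52 (SE 0.26, 95% interval -1.17 to 0.13, limma unadjusted p = 0.0963, adjusted p = 0.915). Its sign was negative under all 19 alternative analyses, and it passed both thresholds in 5 of them: with median-of-ratios scaling (-0.66), in edgeR with a filter (-0.61), in DESeq2 (-0.65), and with the satellite (-0.60) or the endothelial marker score (-0.67) as a covariate. It was nearer 0 without NC1 (-0.35), without HC1 (-0.36) and under the macrophage covariate (-0.40), and leaving out 1 library gave -0.70 to -0.35.

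Notch2 was the most even member. It stood at 245, 384 and 294 RPM in the normocapnia libraries and at 245, 331, 286 and 281 RPM in HC1 through HC4. The hypercapnia values lay inside the normocapnia range or level with its lower end, and the log2 fold change was -0.089 (SE 0.18, 95% interval -0.54 to 0.36, adjusted p = 0.969 in limma). This interval does not reach 1.5-fold in either direction.

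Notch3, a receptor of satellite cells and of the mural cells that wrap vessels, behaved otherwise. It measured 175 RPM in NC1 but 10.6 in NC2 and 4.20 in NC3, and 12.8, 12.5, 76.1 and 44.4 RPM in HC1 through HC4. The hypercapnia libraries split into a lower pair (HC1 and HC2) and a higher pair (HC3 and HC4), all inside the span of normocapnia. The log2 fold change of 0.37 (SE 1.41) had an interval from -3.17 to 3.91 (limma adjusted p = 1), so neither a large rise nor a large fall could be detected with these libraries. Its sign turned in 8 of 19 alternatives.

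Dll1, the Delta ligand of myoblasts, followed Notch3 across the libraries. It measured 51.9, 3.59 and 1.10 RPM in NC1, NC2 and NC3, the last resting on 16 reads, and 8.18, 8.94, 20.6 and 15.6 RPM in HC1 through HC4. All 4 hypercapnia libraries lay above NC2 and NC3 and below NC1. The log2 fold change was 0.75 (SE 1.16, 95% interval -2.16 to 3.66, limma adjusted p = 0.935). Without NC1 it was 2.11 and called (unadjusted p = 0.013), and without NC3 it was -0.21, so the sign and the call rest on single normocapnia libraries.

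Jag1, a Jagged ligand, showed no such spread. It measured 73.5, 156 and 97.6 RPM in the normocapnia libraries and 90.8, 98.6, 113 and 113 RPM in HC1 through HC4, with NC1 the lowest and NC2 the highest of all 7. The group means on the log2 scale were both 6.71, with a log2 fold change of -0.0028 (SE 0.26, 95% interval -0.66 to 0.66, limma adjusted p = 1). Dll1 and Jag1, the ligands studied, thus had their extremes in different libraries.

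The promoters of Dll1, Notch3 and Maml1 are shown because the first 2 genes moved together over the libraries and the third is the member that was called. They come from RefSeq on GRCm38.p6, which held windows from 250 bases before to 50 bases after the start for 6 of the measured members; the authors' build is not given in the sources used here. Dll1 has a window for each of its 2 starts, at chr17:15375774-15376073 and chr17:15376883-15377182, Notch3 lies at chr17:32166841-32167140 and Maml1 at chr11:50292287-50292586, all on the minus strand. Capitals mark the E-box CANNTG, the letters to which myogenic and Hes-type factors can bind.
Dll1, first window: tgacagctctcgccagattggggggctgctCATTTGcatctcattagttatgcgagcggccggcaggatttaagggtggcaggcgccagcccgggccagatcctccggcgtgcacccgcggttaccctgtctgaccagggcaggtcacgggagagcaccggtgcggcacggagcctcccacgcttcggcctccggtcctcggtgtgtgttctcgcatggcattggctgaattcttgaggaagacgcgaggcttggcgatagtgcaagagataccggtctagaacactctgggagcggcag
Dll1, second window: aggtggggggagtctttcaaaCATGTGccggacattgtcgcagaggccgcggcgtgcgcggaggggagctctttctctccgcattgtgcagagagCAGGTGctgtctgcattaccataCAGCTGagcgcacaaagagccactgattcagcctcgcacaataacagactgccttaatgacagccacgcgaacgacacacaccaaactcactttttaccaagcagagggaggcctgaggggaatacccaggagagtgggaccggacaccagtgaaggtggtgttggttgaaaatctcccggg
Notch3: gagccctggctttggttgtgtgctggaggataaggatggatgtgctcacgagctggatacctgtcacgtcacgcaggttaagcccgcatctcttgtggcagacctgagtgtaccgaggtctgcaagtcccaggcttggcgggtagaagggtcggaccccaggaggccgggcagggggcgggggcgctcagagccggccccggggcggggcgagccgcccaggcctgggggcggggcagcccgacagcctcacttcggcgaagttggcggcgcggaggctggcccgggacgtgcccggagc
Maml1: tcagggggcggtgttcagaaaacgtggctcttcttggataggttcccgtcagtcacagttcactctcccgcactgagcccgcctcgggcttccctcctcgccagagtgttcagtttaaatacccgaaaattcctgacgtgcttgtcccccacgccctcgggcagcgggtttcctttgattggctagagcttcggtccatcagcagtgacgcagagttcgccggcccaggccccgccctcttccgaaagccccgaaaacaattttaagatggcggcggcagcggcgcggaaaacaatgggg
On both strands, the E-box was found 1 time in the first Dll1 window, 3 times in the second, which includes CAGCTG, and not in the windows of Notch3 or Maml1. Of 32851 promoter windows of the same length in the table, 72.3% hold CANNTG and 16.3% hold CAGCTG, which is a form of it. The core of the Rbpj motif, TGGGAA, was not in any of the 7 windows of members, against 25.6% of all windows. Such matches describe the letters of these windows only.

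In the nucleus, Maml1 was the member that fell. It encodes the Mastermind-like coactivator that bridges the Notch intracellular domain, Rbpj and histone acetyltransferases. Maml1 measured 91.4, 90.3 and 110 RPM in NC1, NC2 and NC3, and 58.4, 63.9, 68.4 and 61.6 RPM in HC1, HC2, HC3 and HC4. The groups did not overlap, as in 4.83% of all genes and 9.62% of those averaging 10 RPM or above. The log2 fold change was -0.61 (SE 0.091, 95% interval -0.84 to -0.39), which is 1.53-fold lower, and relative to the median change among genes averaging 1 RPM or above it was -0.78. Limma gave an unadjusted p of 0.000737 and an adjusted p of 0.517, and the exact permutation test, two-sided, gave p = 0.0286, the smallest value that 3 against 4 libraries allow. Over 19 alternatives the log2 fold change ran from -0.84 to -0.52 and the unadjusted p from 0.000774 to 0.0378. The call was kept in 15, and in the other 4 the fold slipped under 1.5, namely without NC3 (-0.52), without HC1 (-0.58), when 5 RPM were added before the logarithm (-0.58), and under the macrophage covariate (-0.57). With the satellite marker score as a covariate Maml1 was 0.60 lower on the log2 scale (log2 fold change -0.60, SE 0.10) and kept its call. The SE of Maml1, 0.091 in the main fit, was not stable. It was 0.25 with a filter on low genes (limma unadjusted p = 0.0378), 0.27 with median-of-ratios scaling and 0.35 in DESeq2. The macrophage score differed by 0.26 between the groups (exact permutation p = 0.429), and its 12 markers went both ways, from -0.38 for Tyrobp to 1.31 for Adgre1 in log2 fold change. Of them 1 was called, against 2.57% of all genes: Adgre1, which was higher in hypercapnia with no overlap of the groups (70.5 to 149 RPM in normocapnia and 151 to 429 RPM in hypercapnia, log2 fold change 1.31, limma unadjusted p = 0.0403, adjusted p = 0.915). Among the 7 mural markers 1 was called, Cspg4, also higher and without overlap (log2 fold change 0.79, limma unadjusted p = 0.0472, adjusted p = 0.915).

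The target genes Heyl, Hey1 and Hes1 were highest in NC1, followed by HC3 and HC4, as were Notch3 and Dll1, but their lowest libraries differed (NC3, NC2 and HC1 in turn). Heyl, a Hey-family repressor of satellite and mural cells, spanned the widest range: 371, 10.4 and 4.54 RPM in the normocapnia libraries and 19.9, 9.95, 90.5 and 70.9 RPM in HC1 through HC4. Its log2 fold change was 0.29 (SE 1.70, 95% interval -3.96 to 4.54, limma adjusted p = 1), and its sign was negative in 11 of 19 alternatives. The groups overlapped in full, with NC1 at the top and NC3 at the bottom.

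Hey1, the related repressor that Notch induces in satellite and endothelial cells, measured 32.8, 2.18 and 3.17 RPM in NC1, NC2 and NC3, against 3.38, 2.91, 16.9 and 12.6 RPM in the hypercapnia libraries. NC1, HC3 and HC4 stood apart from the other 4 libraries, which held 46 to 79 reads each. Hes1, a bHLH repressor with a broader distribution, measured 42.5, 11.3 and 11.0 RPM, against 5.86, 6.88, 30.6 and 28.2 RPM. Here HC1 and HC2 were the lowest libraries, below NC2 and NC3. The log2 fold changes were 0.071 for Hey1 (SE 1.06, 95% interval -2.59 to 2.73) and -0.31 for Hes1 (SE 0.83, 95% interval -2.38 to 1.75), with limma adjusted p = 1 for both. The sign of Hey1 was negative in 13 of 19 alternatives, and that of Hes1 was positive in 3.

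The wide-ranging genes were then set against the satellite marker score of the same library. Over 7 libraries, 36 relations were computed (9 genes with 4 marker scores), each with an exact permutation test, two-sided. Notch3 rose with the satellite score with Pearson's r = 0.99 (exact p = 0.000198, the smallest that the 5040 orderings can give, adjusted p = 0.00476) and Spearman's rho = 1 (exact p = 0.000397, adjusted p = 0.0143). Dll1 gave r = 0.98 (exact p = 0.000397, adjusted p = 0.00476) and rho = 0.96 (exact p = 0.00278, adjusted p = 0.0334), and Heyl gave the same values. Hey1 followed with r = 0.94 (exact p = 0.00298, adjusted p = 0.0268) and rho = 0.89 (exact p = 0.0123, adjusted p = 0.0886).

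Leaving out NC1 and HC3, the libraries farthest from the median score, r was 0.97 for Notch3 and Dll1, 0.95 for Heyl and 0.78 for Hey1. Hes1 was less tight (r = 0.80, exact p = 0.0357, adjusted p = 0.107, rho = 0.68, exact p = 0.11, adjusted p = 0.233), and without these libraries r was 0.45. For Notch1, Notch2, Jag1 and Maml1 the relation with the satellite score did not pass (r from -0.56 to 0.48, exact adjusted p from 0.347 to 0.66), although for Maml1 r was -0.86 over the 5 libraries left without NC1 and HC3. For Notch2 rho was -0.75 (exact p = 0.0663, adjusted p = 0.184). The labels name no batch, and 3 and 4 libraries are too few for a correlation within each group. The exact test takes the 7 libraries as independent and pools both groups. Some libraries were close to each other, such as HC1 and HC2 in Pax7 (21.5 and 20.1 RPM), so these p-values may overstate the evidence.

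**Figure D3:**
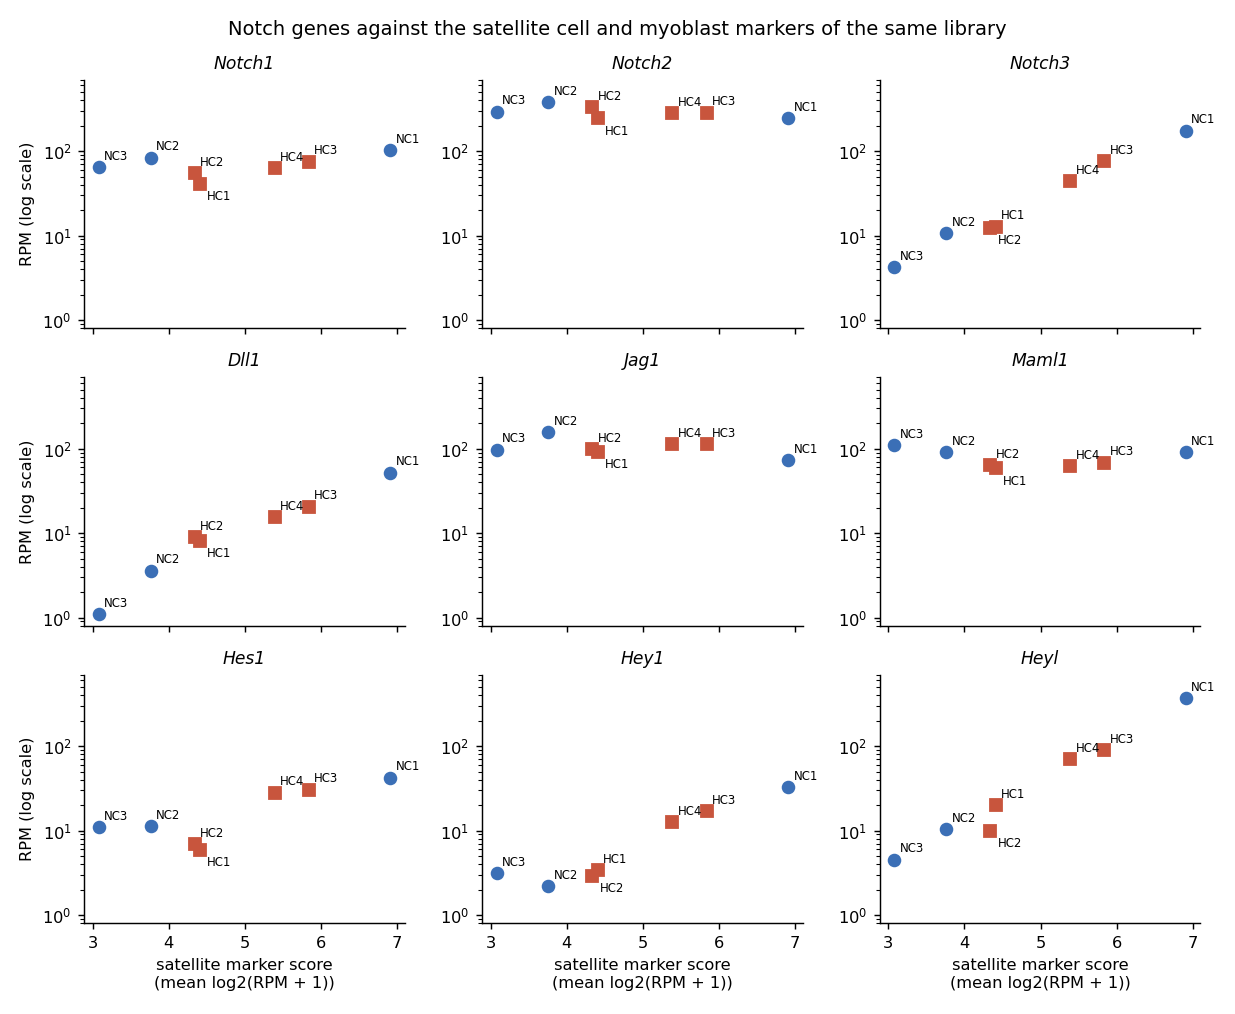
Level of each Notch gene in RPM (log axis) against the satellite marker score of the same library, the mean log2(RPM + 1) of 12 markers, with normocapnia as blue circles and hypercapnia as red squares. Notch3, Dll1 and Heyl climb along 1 line through both groups from NC3 to NC1, whereas Notch2 varies 1.57-fold, Maml1 1.89-fold and Jag1 2.12-fold over the same scores.

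Expressed per RPM of Pax7, a ratio chosen after the values were seen, 4 of the 5 wide-ranging genes became more even and Hes1 became less so. Pax7 itself spanned 61.9-fold, but Notch3 per Pax7 ran from 0.592 (HC1) to 1.28 (NC2), Dll1 per Pax7 from 0.193 (NC1) to 0.445 (HC2), and Heyl per Pax7 from 0.495 (HC2) to 1.38 (NC1), with overlap of the groups for each. Their spans were 2.17-fold, 2.30-fold and 2.80-fold. Hey1 per Pax7 spanned 5.97-fold, against 15-fold for Hey1 itself. Hes1 per Pax7 spanned 16.0-fold, more than the 7.25-fold of Hes1 itself. Both ratios were highest in NC3. Notch1, Notch2, Jag1 and Maml1 became less even, with spans per Pax7 of 38.2-fold, 74.3-fold, 82.2-fold and 74.6-fold in turn. With the satellite marker score as a covariate in limma, the standard error of Dll1 fell to 0.19 from 1.16 and its log2 fold change to 0.29 (unadjusted p = 0.196), and none of the 5 wide-ranging genes was called.

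Other cell types moved with these genes too. The mural score (7 markers without Notch3) gave r = 0.92 with Notch3 (exact p = 0.00615, adjusted p = 0.0443, rho = 0.86, exact p = 0.0238, adjusted p = 0.122), and r of 0.89 to 0.90 with Heyl, Hey1 and Hes1 (exact p from 0.00933 to 0.0159, adjusted p from 0.056 to 0.0716). Mural markers summed to 124 to 1780 RPM in normocapnia and 155 to 716 RPM in hypercapnia, and none was at 0 in any library. Dll1 gave r = 0.81 with the mural score (exact p = 0.0238, adjusted p = 0.0952, rho = 0.82, exact p = 0.0341, adjusted p = 0.136) and r = 0.70 with the endothelial score (exact p = 0.0831, adjusted p = 0.176, rho = 0.75, exact p = 0.0663, adjusted p = 0.184). With the endothelial score, r was 0.84 for Hes1 (exact p = 0.0312, adjusted p = 0.105, rho = 0.75, exact p = 0.0663, adjusted p = 0.184), the highest r of the members for that score. By rho, Heyl (0.86, exact p = 0.0238, adjusted p = 0.122) and Notch3 (0.79, exact p = 0.048, adjusted p = 0.173) stood higher. With the macrophage score, r was negative for all 5 wide-ranging genes (-0.79 to -0.32) and passed adjustment for none (exact adjusted p from 0.138 to 0.563). It was also negative for Notch1 and Maml1 (-0.59 and -0.50, exact adjusted p = 0.332 and 0.375). For Notch2 and Jag1 it was positive (0.43 and 0.42, exact adjusted p = 0.441 and 0.49). For Maml1 rho was -0.71 (exact p = 0.0881, adjusted p = 0.198). The part of each cell type in the levels of these genes, or of Notch1, Notch2, Jag1 and Maml1, was not tested.

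**Figure D4:**
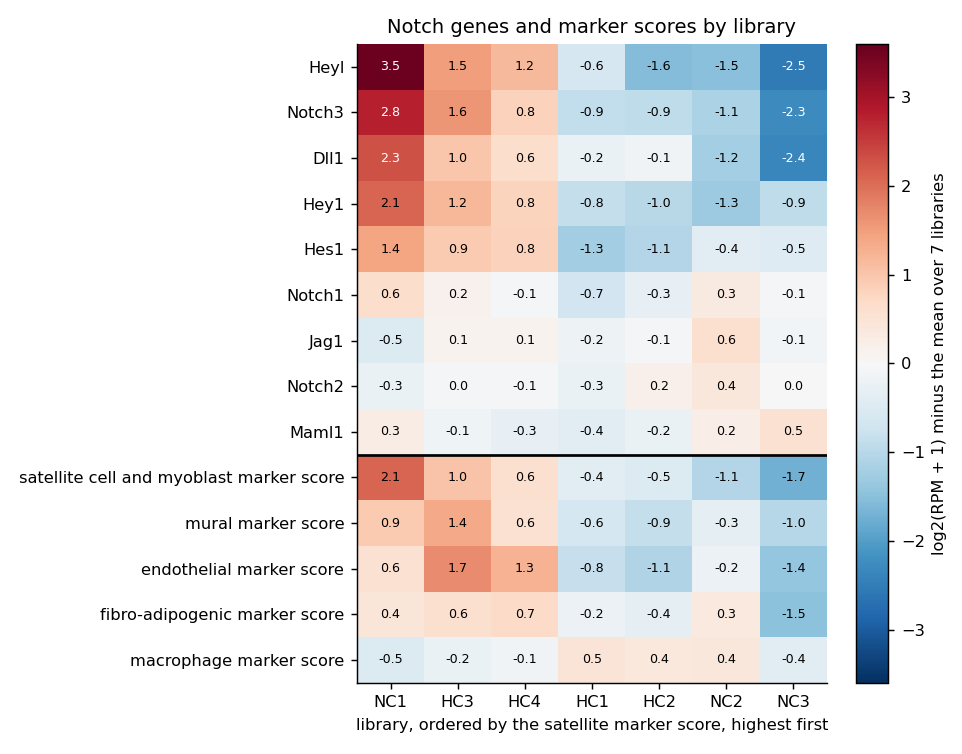
Each row shows log2(RPM + 1) minus its mean over 7 libraries, for the 9 Notch genes above the line and for 5 marker scores below it, with libraries ordered by the satellite score. Heyl, Notch3, Dll1 and Hey1 run from red in NC1 to blue at the right like the satellite score, while the endothelial score peaks in HC3.

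By the highest Pearson correlation over the 7 libraries among 8228 genes averaging 10 RPM or above, and given as a description, the genes most like Heyl were Runx2 (r = 0.996), Atoh8 (0.996) and Tgfb3 (0.993). Those most like Notch3 were Smtn (0.999), Arhgef17 (0.997) and Klhl13 (0.996), those most like Dll1 were Ncald (0.999), Crip2 (0.998) and Pitx3 (0.997), and those most like Hey1 were Ryk (0.996), Tpm1 (0.996) and Hmces (0.993). Smtn, smoothelin, and Tpm1, tropomyosin, belong to contractile cells, and Pitx3 is a homeobox factor of myoblasts. Among the members themselves, pairs of the 5 wide-ranging genes had r between 0.70 (Dll1 with Hes1) and 0.99 (Notch3 with Heyl).

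The remaining genes of the pathway were taken from lists by role. Of 56 such genes outside the members, 52 were in the table, and limma called 2 higher and 3 lower (9.62% of them, against 2.57% of all genes and 5.54% of those at 10 RPM or more). Adjusted across the table, none of the 5 passed (limma adjusted p = 0.915 for each). The median log2 fold change was 0.14, with 28 above 0 and 24 below.

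Ligand endocytosis, the step by which the sending cell pulls on the receptor, held a pair that moved in opposite directions. The ubiquitin ligase Mib1, the main activator of Notch ligands, was lower: 138, 92.4 and 108 RPM in the normocapnia libraries, but 82.4, 60.7, 63.3 and 87.1 RPM in hypercapnia. Mib1 thus had a log2 fold change of -0.61 (SE 0.20, limma unadjusted p = 0.0236). Its relative Mib2 was higher, with normocapnia at 19.8, 21.6 and 10.6 RPM and hypercapnia at 28.1, 34.1, 27.2 and 35.8 RPM. For Mib2 the log2 fold change was 0.87 (SE 0.26, limma unadjusted p = 0.0193). Neither gene overlapped between the groups, as was the case for 5 of the 52 pathway genes outside the members (Crebbp and Aph1c among them), against 9.62% of all genes averaging 10 RPM or above. The call of Mib1 was lost in 6 of 19 alternatives and that of Mib2 in 2, without NC3 (0.56) and without HC4 (0.80). For Mib1 these were the analyses without NC1 (-0.46), NC3 (-0.63), HC2 (-0.53) or HC3 (-0.55), with a filter on low genes (-0.61) and with the macrophage covariate (-0.54). The limma unadjusted p of Mib1 was above 0.05 in each (0.0549 to 0.0711). With the filter and without NC3 its fold stayed above 1.5. Epn1, the endocytic adaptor epsin, gave -0.37 (SE 0.23), with -0.61 and a call without NC3 (limma unadjusted p = 0.0139) and -0.16 without NC1.

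The nuclear activation complex around Maml1 had 6 measured genes, and all 6 had log2 fold changes below 0 (median -0.55), with Maml1 the 1 called. Of the genes averaging 1 RPM or above, 4739 of 12504 were below 0, and their median was 0.16. All 6 were also below 0 under each of 19 alternatives, which reuse the same 7 libraries. Crebbp, an acetyltransferase that Maml1 recruits, measured 96.3, 154 and 322 RPM against 83.9, 89.2, 85.5 and 82.8 RPM, with no overlap of the groups, but NC3 was far above the others (log2 fold change -0.98, SE 0.40, limma unadjusted p = 0.0552). Crebbp was singled out after its values were seen. It was called lower with a filter on low genes, in both edgeR analyses, in DESeq2, without NC1 and with the satellite covariate. It was not called in the other alternatives, among them the analysis without NC3. Ep300, its paralog, gave -0.55 (SE 0.26, limma unadjusted p = 0.0859), with -0.87 and a call without NC1 (limma unadjusted p = 0.000293) and -0.33 without NC3. The number called in this list ran from 0 to 3 over the alternatives, and leaving out single libraries gave 0 without HC1 and 3 without NC1.

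For the cleavage machinery 8 of 9 genes had log2 fold changes above 0, where 7765 of 12504 genes averaging 1 RPM or above did. Of the 9, 1 was called, against 4.75% of those genes: Aph1c, a gamma-secretase subunit, with normocapnia at 8.47, 11.4 and 4.75 RPM and hypercapnia at 15.8, 23.7, 13.8 and 11.5 RPM. Its log2 fold change was 0.92 (SE 0.35, limma unadjusted p = 0.0419). The groups were apart by the narrow step between NC2 at 11.4 and HC4 at 11.5 RPM, and the call was lost in 12 of 19 alternatives, among them both other scalings and the analyses without NC1, NC3, HC1, HC2 or HC3. In these 12 the log2 fold change ran from 0.62 (without NC3) to 0.98 (without NC1 or HC3), above 1.5-fold, and the unadjusted p from 0.0554 to 0.156. Aph1b and Aph1c are near-identical copies, so reads may be split between them. Without NC3, 4 genes of this list were above 0 and 5 below. Ncstn, nicastrin, gave 0.23 (SE 0.22), with 0.45 without NC2 and 0.042 without NC3.

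Among the corepressors of Rbpj, the histone demethylase Kdm5a was called lower: normocapnia stood at 99.1, 71.1 and 174 RPM and hypercapnia at 51.3, 47.4, 72.9 and 60.1 RPM. Kdm5a had a log2 fold change of -0.89 (SE 0.33, limma unadjusted p = 0.0398). The Deltex gene Dtx3, a ubiquitin ligase, was also lower, with 44.6, 26.8 and 50.9 RPM in normocapnia and 19.7, 18.5, 33.2 and 20.8 RPM in hypercapnia. For Dtx3 it was -0.78 (SE 0.30, limma unadjusted p = 0.044). In both genes HC3 lay above NC2, and each call was lost in 10 of 19 alternatives, including those without NC1, NC3, HC1, HC2 or HC4. For Kdm5a the p exceeded 0.05 in all 10 (0.0523 to 0.0915), with log2 fold changes from -1.04 to -0.67 in 9 of them and -0.55 without NC3. For Dtx3 the p exceeded 0.05 in 9 (0.0509 to 0.136), with log2 fold changes from -0.93 to -0.60, while with the macrophage covariate it was the fold that fell short (-0.55). The corepressor Ncor1 gave -0.073 (SE 0.16), and Itch, a ubiquitin ligase, gave 0.11 (SE 0.19). Receptors, ligands, glycosylation enzymes and targets held 0 called genes, which is near the 2.57% called over all genes. Lfng, the Fringe enzyme that tunes which ligand a receptor answers, was highest in NC3 (513 RPM, against 105 to 195 RPM in the other 6 libraries). Poglut1, which adds O-glucose to the receptor, had the smallest p of that list (log2 fold change 0.88, SE 0.67), but it was 1.56 and called without NC1 (limma unadjusted p = 0.0319) and 0.14 without NC3. The ligand Jag2 gave 0.83 (SE 0.84), with 1.61 without NC1 and -0.0057 without NC3.

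**Figure D5:**
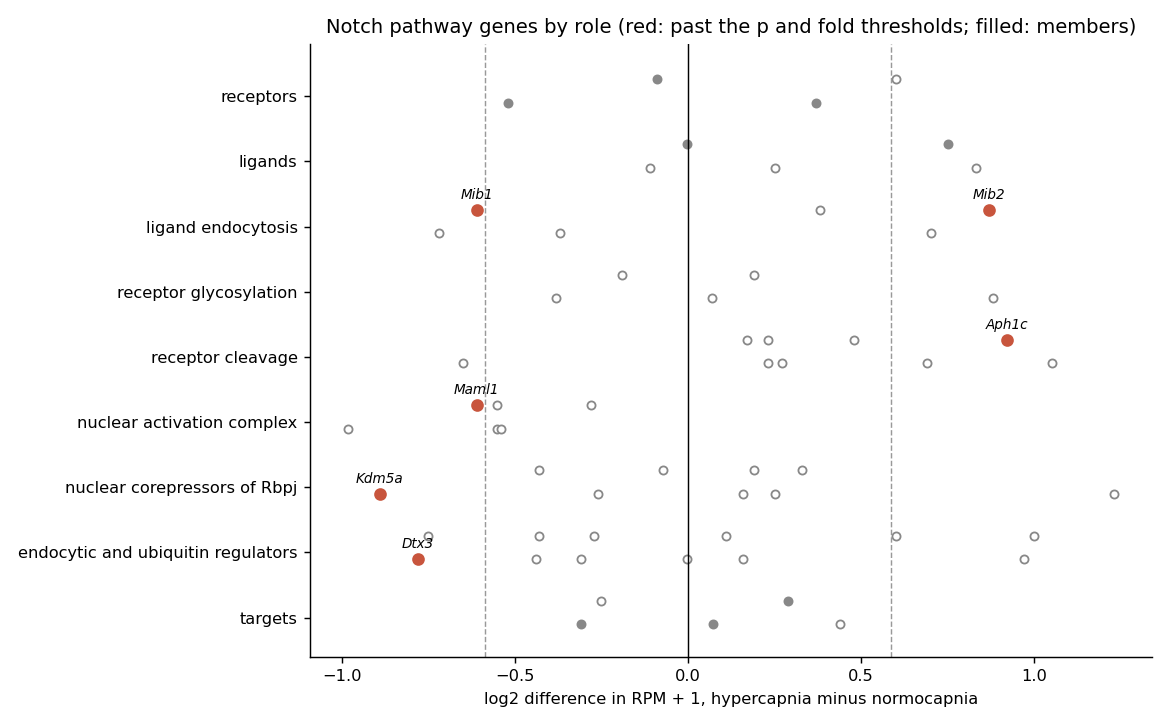
Difference in log2(RPM + 1), hypercapnia minus normocapnia, of 61 Notch pathway genes by role, each point 1 gene, with members filled, called genes in red and dashed lines at 1.5-fold. Maml1, Mib1, Kdm5a and Dtx3 lie to the left and Mib2 and Aph1c to the right, while all 6 genes of the nuclear activation complex lie left of 0.

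Notch4, Dll4 and Nrarp are given as a description, since they were picked with their values in view. Each was highest in HC3. Notch4, an endothelial receptor, was 11.7 RPM in HC3 and at most 5.55 RPM elsewhere. Dll4, the ligand of sprouting endothelium, was 18.0 RPM in HC3 and 9.82 RPM in HC4, above the 6.69 RPM of NC1. Nrarp, a feedback target of Notch, was 13.4 and 12.4 RPM in HC3 and HC4 and at most 5.89 RPM in the other 5 libraries. Pecam1, an endothelial adhesion molecule, was 317 RPM in HC3, 229 RPM in HC4 and 132 RPM in NC1.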

How the data were processed

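RNA of sorted Pax7-GFP cells was measured in 3 normocapnia and 4 hypercapnia libraries, grouped by their titles. The authors made AmpliSeq libraries on an Ion Chef, sequenced them on an Ion S5 and deposited RPM, the reads of each gene scaled to a common library total. The labels name the Transcriptome Analysis Console; for aligner and genome build, nothing is given in the sources used here. Whole reads were recovered from the RPM steps (100% of values within 0.05 reads), with the total depth per library between 14527445 and 23388710 reads; 3 reads, taken as the floor, are 0.128 to 0.207 RPM. PCR reads are not independent molecules, so this covers counting error only.

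The main test was limma (version 3.58.1, R version 4.3.3), fitted to log2(RPM + 1) of the whole table of 23930 genes with no low-value filter. Fold changes on this scale understate changes of low genes. Calls needed an unadjusted p under 0.05 and a fold above 1.5. edgeR 4.0.16 and DESeq2 1.42.0 on the recovered reads were alternatives. Fits were tested on simulated data. The members, lists and tests were chosen with earlier results of these data known. Genes were named by rule: the members, called pathway genes, the gene of highest mean RPM and that of smallest p in each pathway list, and the 3 genes most like each of the 4 widest-ranging members; the leading markers of each cell type are given through their list sums. Crebbp, Notch4, Dll4, Nrarp, Adgre1, Cspg4, Tyrobp, C1qa and Myl4 do not come from the rule and were picked with their values in view; Pax7 and Pecam1 lead their marker lists.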

Additional observations from a re-analysis of the deposited data

Results flagged for a closer look

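In the hypercapnia group of 4 libraries, the gap of the highest library to the next was large for its range (Dixon's ratio above its 95% critical value) in 3 of the 23 genes tested, where chance alone gives about 1 in 20. Hey2, a target repressor, had a ratio of 0.931, with 1.69 RPM in HC3 and between 0.151 and 0.257 RPM in the other 3, near the floor of 3 reads. Itch, a ubiquitin ligase that acts on Notch receptors, had a ratio of 0.89, with HC4 highest at 114 RPM and the lowest library at 99.3 RPM. Dtx3 had a ratio of 0.847, with HC3 at 33.2 RPM and the lowest library at 18.5 RPM.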

How the results depend on the processing

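With 3 and 4 libraries, the spread of Notch3, Dll1, Hes1, Hey1 and Heyl within groups limits what can be detected, and their signs were not stable. In edgeR with a filter, edgeR without a filter and DESeq2 the log2 fold changes were -0.61, -0.65 and -0.65 for Notch3, -0.29, -0.33 and -0.32 for Dll1, -0.39, -0.42 and -0.43 for Hey1, -1.23, -1.27 and -1.26 for Heyl, and -0.0057, -0.0020 and -0.045 for Itch. With the satellite score as a covariate they were -0.19 (Notch3), -0.33 (Hey1), -0.38 (Heyl) and 0.046 (Jag1), with the endothelial score -0.39, -0.49 and -0.60 for the first 3, and with the macrophage score 0.27 for Hes1. Hey1 was -0.045 with a pseudocount of 5 RPM, -0.036 with median-of-ratios scaling, and -0.23 after quantile normalization, under which Heyl was -0.039; Itch was -0.027 with median-of-ratios scaling. Leaving out 1 library gave -0.24 to 0.082 for Notch2, -0.67 to 1.87 for Notch3, -0.21 to 2.11 for Dll1, -0.25 to 0.29 for Jag1, -0.67 to 0.30 for Hes1, -0.56 to 1.14 for Hey1, -0.90 to 2.14 for Heyl, -0.0057 to 1.6 for Jag2, -0.9 to 0.23 for Lfng, -0.24 to 0.089 for Ncor1 and -0.11 to 0.28 for Itch.

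The count of members lower was 0 with a pseudocount of 5 RPM or the macrophage score, and 2 (Maml1 and Notch1) with median-of-ratios scaling, edgeR with a filter, DESeq2 and the satellite or endothelial score; leaving out 1 library gave 0 to 1 lower and 0 to 1 higher. Other pathway genes called lower were 5, 6 and 8 in edgeR with a filter, edgeR without a filter and DESeq2 and 0 with the macrophage score, and 0 to 5 on leaving out 1 library. Those called higher were 1 with median-of-ratios scaling, quantile normalization, either edgeR analysis and each marker score, and 0 to 4 on leaving out 1 library. All genes called were 1049 in edgeR without a filter, 1304 in DESeq2, 1045 with the satellite score and 376 to 1990 on leaving out 1 library, most without NC1. Among genes averaging 1 RPM or above, the median change was 0.16 as deposited, 0.045 after median-of-ratios scaling, and -0.0064 after quantile normalization. Same-numbered libraries deviated from their group means with correlations of -0.349, 0.503 and -0.044, and only number 2 matched its own number best. So few pairs cannot decide whether equal numbers mark a shared origin, and the main test took the libraries as unpaired. With the replicate number as a block, 598 genes and 1 member (Maml1) were called, and Hey1 and Heyl were -0.18 and -0.056. The cause of these shifts was not tested.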
